A study of Mus musculus with 157 samples.

Results

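The 10 genes studied mark and maintain the naive state of mouse embryonic stem cells, and RNA polymerase II (Pol II) on them was followed through 72 h of retinoic acid (RA). They were Zfp42, Esrrb, Klf2, Klf4, Klf5, Tfcp2l1, Tbx3, Nr0b1, Tcl1 and Dppa4. They were found by symbol in 4 deposited tables of Pol II ChIP-seq counts, and each was represented by its transcript with the highest mean raw count in that table. All 10 were present, as 17 transcripts, among 23643 to 23887 gene symbols, and all 10 passed the filter on low counts in each table.

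The cells were wildtype E14, a mouse embryonic stem cell line, grown on gelatin in serum medium with leukaemia inhibitory factor (LIF). They were given 1 µM RA, a vitamin A derivative that drives differentiation, and crosslinked after 2, 4, 6, 24, 48 or 72 h, or at 0 h without it. Whether LIF stayed in the medium with RA is not given in the sources used here, and all groups come from 1 cell line. The antibodies were to the N-terminal domain of Pol II (NTD, total Pol II) and to its C-terminal repeat phosphorylated at serine 5 (Ser5p, enriched at promoters) or serine 2 (Ser2p, enriched along transcribed genes). NTD and Ser5p were counted in windows reaching 1 kb up- and downstream of each transcription start (TSS), and NTD and Ser2p over gene bodies. Whether the body counts leave out the part next to the start is not given here, so NTD at the TSS and over the body may share reads. NTD had 2 libraries at 0, 2, 24 and 72 h and 3 at 4, 6 and 48 h, and Ser5p and Ser2p had the same numbers except for 3 at 2 h. With every antibody the 0 h libraries were replicates 1 and 4 and the 24 h libraries replicates 2 and 3. These times share no replicate number, so in a direct comparison of 24 h with 0 h, time and replicate number cannot be told apart. The 48 and 72 h libraries share only replicate 1 with 0 h. In a population of cells, fewer cells that use a gene and less Pol II per cell cannot be told apart.

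In the naive state, the factors Pou5f1, Sox2 and Nanog act with a group of further transcription factors that LIF-STAT3 and WNT signals sustain and that is dismantled when cells leave pluripotency. Esrrb (an orphan nuclear receptor), Tfcp2l1 (a grainyhead-family factor), Klf2, Klf4 and Klf5 (zinc-finger factors that bind GC-rich sites) and Tbx3 (a T-box factor) are activators in this network. Nr0b1 (also Dax1) is an orphan receptor without a DNA-binding domain of the usual kind. Zfp42 (also Rex1) is a zinc-finger protein widely used as a reporter of the naive state. Tcl1, a coactivator of the kinase AKT, and Dppa4, a chromatin protein with a SAP domain, are markers of the same state but not classical transcription factors.

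Promoter windows from RefSeq (GRCm38.p6) reach from 250 bases before to 50 after an annotated start and were found for 7 of the 10 genes, in 8 windows. Klf5, Tbx3 and Dppa4 had no entry. The first 3 windows printed here belong to Nr0b1, Zfp42 and Tcl1, where Pol II at the TSS was lower at 48 h, and the last 2 to Klf2 and Klf4, where it was not. Capitals mark matches, on either strand, to the motifs searched. Those were TCAAGGTCA (ESRRB), AGGTCA (nuclear receptor element), ATGCAAAT (octamer), ACAATG (SOX), TTCNNNGAA (STAT), GGGTGTG (KLF), GGGCGG (GC box), TATAAA and CCAAT. TCAAGGTCA contains AGGTCA, and neighbouring GC box and KLF matches can overlap.
Nr0b1: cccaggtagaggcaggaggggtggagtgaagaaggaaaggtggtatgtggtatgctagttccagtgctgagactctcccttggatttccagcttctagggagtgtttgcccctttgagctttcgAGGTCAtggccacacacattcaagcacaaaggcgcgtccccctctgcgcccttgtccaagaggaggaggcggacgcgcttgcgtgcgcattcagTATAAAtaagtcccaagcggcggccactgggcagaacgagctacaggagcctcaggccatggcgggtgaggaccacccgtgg
Zfp42: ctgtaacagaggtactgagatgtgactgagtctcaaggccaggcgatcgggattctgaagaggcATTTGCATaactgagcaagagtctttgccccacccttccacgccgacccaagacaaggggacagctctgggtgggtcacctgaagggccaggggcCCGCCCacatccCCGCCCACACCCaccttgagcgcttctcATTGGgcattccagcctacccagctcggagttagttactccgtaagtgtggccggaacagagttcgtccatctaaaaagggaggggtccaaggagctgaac
Tcl1: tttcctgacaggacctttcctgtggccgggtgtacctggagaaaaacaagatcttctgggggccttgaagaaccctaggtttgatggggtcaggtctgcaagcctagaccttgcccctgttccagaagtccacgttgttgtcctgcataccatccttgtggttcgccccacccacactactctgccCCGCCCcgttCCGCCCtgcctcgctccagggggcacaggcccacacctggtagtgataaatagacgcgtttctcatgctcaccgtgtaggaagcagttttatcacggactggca
Klf2: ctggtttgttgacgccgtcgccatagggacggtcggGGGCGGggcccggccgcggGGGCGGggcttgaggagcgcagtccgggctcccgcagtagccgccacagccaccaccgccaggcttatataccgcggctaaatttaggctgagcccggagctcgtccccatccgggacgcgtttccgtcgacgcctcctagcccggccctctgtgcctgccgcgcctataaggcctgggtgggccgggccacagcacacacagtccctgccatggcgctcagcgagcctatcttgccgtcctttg
Klf4: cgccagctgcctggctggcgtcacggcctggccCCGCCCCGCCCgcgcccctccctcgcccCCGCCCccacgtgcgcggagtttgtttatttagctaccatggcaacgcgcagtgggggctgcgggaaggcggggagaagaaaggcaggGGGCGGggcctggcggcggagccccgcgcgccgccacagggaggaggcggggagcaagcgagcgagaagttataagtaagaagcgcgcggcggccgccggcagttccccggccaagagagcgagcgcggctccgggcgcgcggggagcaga

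The Nr0b1 window (chrX:86191525-86191824, plus strand) held TATAAA 32 bases before the start, a motif found in 13.6% of 32851 windows, and AGGTCA, found in 16.3%. In the Zfp42 window (chr8:43306960-43307259, minus strand) lay an octamer match, found in 1.74% of windows, with a KLF match (7.95%), 2 GC boxes (35.7%) and CCAAT (37.4%). The Tcl1 window (chr12:105222688-105222987, minus strand) had 2 GC boxes. Klf2 (chr8:72318812-72319111, plus strand) had 2 GC boxes and Klf4 (chr4:55532426-55532725, minus strand) had 4. The other windows held TATAAA at Tfcp2l1, and SOX (12.6%), STAT (8.3%) and KLF matches in one and CCAAT in the other of the Esrrb windows. TCAAGGTCA, present in 0.423% of windows, was in none of the 8. CpG dinucleotides numbered 14 at Nr0b1, 11 at Zfp42 and 11 at Tcl1, against 32 at Klf2 and 40 at Klf4, with a median of 7 over all windows. Tfcp2l1, also called lower at the TSS, lay between them with 21, and each Esrrb window had 7. As many as at Klf4 were found in 3.91% of windows, as many as at Klf2 in 9.52% and as many as at Nr0b1 in 36.3%. These matches describe letters in short windows and were not tested against the Pol II values.

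Library totals, the counts summed over all transcripts, were 1088159 to 3210580 (NTD) and 1504737 to 3347830 (Ser5p) at TSSs. Over gene bodies they were 11684907 to 25696364 (NTD) and 18045745 to 28745658 (Ser2p). Reads shared by several transcripts of a gene enter these totals more than once. Levels are given as CPM, counts divided by the TMM-scaled library size, and log2 changes, each with its standard error (SE), come from edgeR's quasi-likelihood test with Benjamini-Hochberg adjustment over all transcripts of the table, called at an adjusted p under 0.05. Nothing in the labels ties replicates to separate cultures, and the p-values here reflect only how much these libraries varied, which may be technical. A pair of NTD libraries stood apart. At 73 tested transcripts at the TSS, 0 h replicate 4 and 72 h replicate 3 were both over 3 times as high as any of the other 15 libraries. Over bodies this was so at only 2 transcripts, and none of these transcripts was of the 10 genes. The 2 libraries at 0 h also ordered the 10 genes one way. NTD was higher in replicate 4 than in replicate 1 at all 10, at the TSS and over bodies, and Ser5p at 8, whereas Ser2p was lower in replicate 4 at all 10. Over all tested transcripts replicate 4 was the higher one at 51.1% (NTD at TSS), 50.8% (Ser5p), 49.4% (NTD over bodies) and 51.0% (Ser2p). 

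Pol II was lower at 6 of the 10 genes at some time, nearly always at 48 and 72 h, and the Klf genes and Tbx3 were never called lower than at 0 h. At the TSS, NTD at 48 h was lower at Nr0b1, Zfp42, Tcl1 and Tfcp2l1 (4 of 10, against 4.92% of all 31868 transcripts tested), and Ser5p at Nr0b1, Zfp42 and Tcl1 (3 of 10, against 5.37%). Over gene bodies, NTD at 48 h was lower at Nr0b1, Zfp42, Esrrb, Tcl1 and Tfcp2l1 (5 of 10, against 2.02%), and Ser2p at Esrrb (1 of 10, against 0.346%). None of the 10 was called higher at 48 h by edgeR, where 4.66%, 6.84%, 1.72% and 1.41% of transcripts were. At an unadjusted p under 0.05, 0, 1, 0 and 2 of them were higher, and DESeq2 called 1, Klf4 in Ser5p. Counts at an unadjusted p, here and below, have no share of all transcripts beside them and only describe the genes counted. The median log2 change of the 10 at 48 h was -0.58 (NTD at TSS), -0.35 (Ser5p), -0.63 (NTD over bodies) and -0.22 (Ser2p), where the medians of all tested transcripts lay between -0.07 and 0.01. The body count was 2 without 0 h replicate 4, 3 without 0 h replicate 1 and 3 without 48 h replicate 1. The Ser2p call was lost without any 1 of 0 h replicates 1 and 4 and 48 h replicates 2 and 3.

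**Figure D1:**
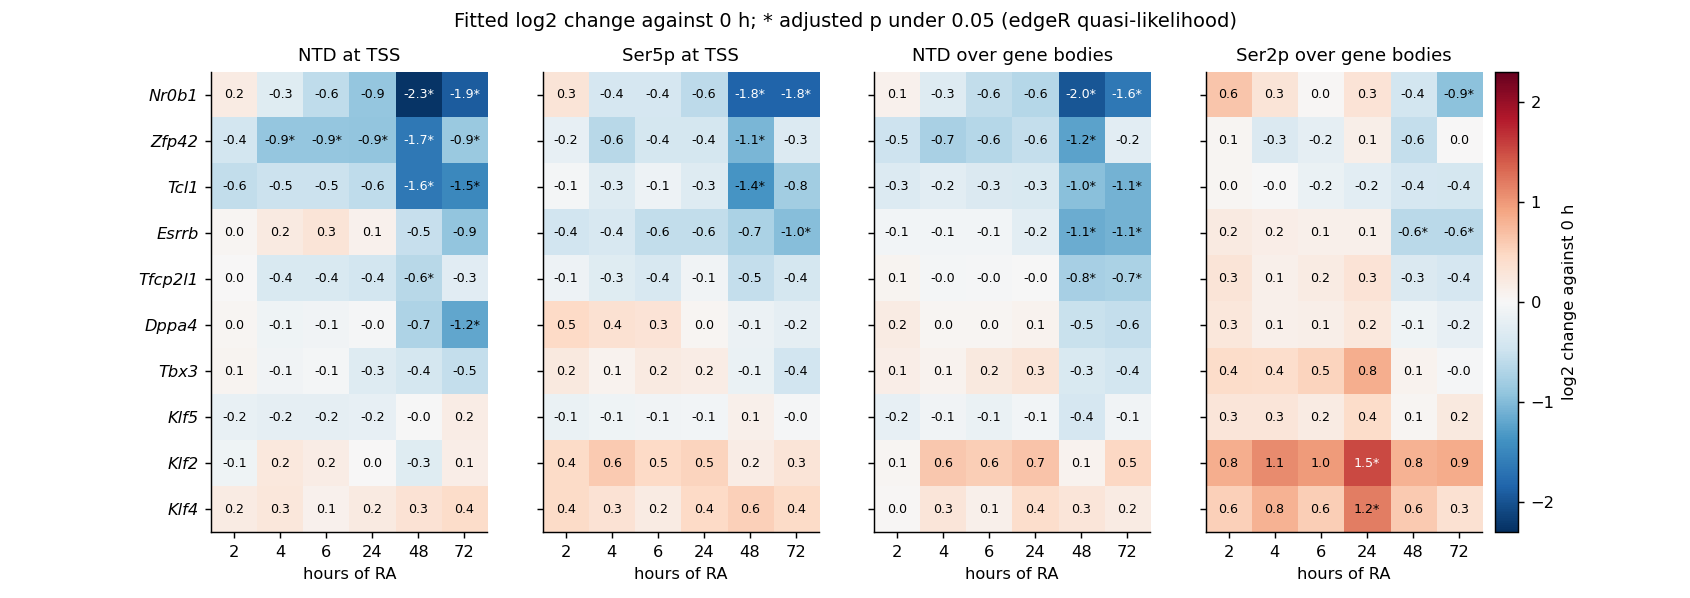
Fitted log2 change against 0 h of each of the 10 genes (rows) at each time (columns, hours of RA) in the 4 tables, in blue where lower and red where higher, with an asterisk at an adjusted p under 0.05. Most asterisks stand at 48 and 72 h, Zfp42 has them from 4 h in NTD at the TSS, and those of Klf2 and Klf4 mark higher Ser2p at 24 h.

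Before RA the genes carried unequal amounts of Pol II. At the TSS, where all windows have 1 length, NTD at 0 h was highest at Klf2, with 173.0 and 260.7 CPM in the 2 libraries. Klf4, Zfp42, Tbx3 and Tfcp2l1 followed with means of 108.6 to 145.3 CPM, and neighbours in that order overlapped. Klf5, Nr0b1, Tcl1 and Dppa4 had means of 29.3 to 63.8 CPM, again overlapping, and Esrrb had 9.30 and 11.2 CPM. Ser5p gave the same order apart from a swap of Tbx3 and Tfcp2l1. Per gene length, the authors' deposited FPKM of NTD over bodies at 0 h was 15.3 ± 5.42 at Klf2, 7.94 ± 1.13 at Zfp42 and 5.75 ± 0.764 at Klf4 (mean ± SD, n = 2). In the same unit it ran down through Tbx3 (4.78), Klf5 (3.69), Nr0b1 (3.25), Tfcp2l1 (2.72) and Esrrb (2.57) to Dppa4 (1.37) and Tcl1 (1.28). Klf2 did not overlap Zfp42, nor Zfp42 Klf4, whereas Klf4 to Esrrb formed a chain in which each gene overlapped the next. ChIP-seq reads carry no strand of origin. Those near the Klf4 start may belong to the neighbouring lncRNA Gm12506, those at Tbx3 to Tbx3os1 and those at one Esrrb start to Gm40483. The Esrrb transcript counted at the TSS starts elsewhere than the one counted over the body, and the 5 Tcl1 transcripts have identical counts.

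**Figure D2:**
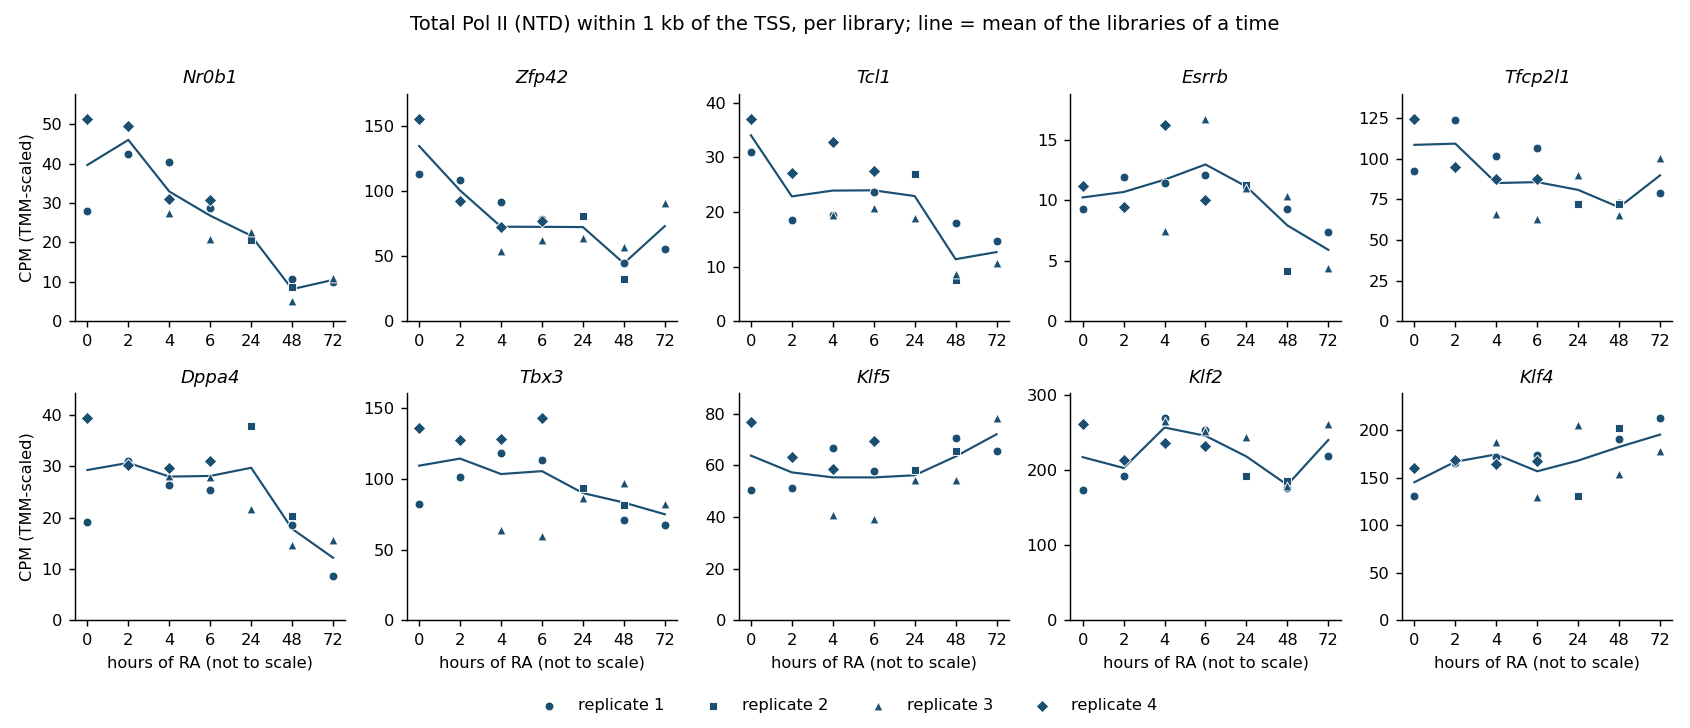
NTD signal within 1 kb of the TSS (vertical axis, TMM-scaled CPM from 0) at each time of RA (horizontal axis, hours, not to scale) for the 10 genes, 1 point per library with its shape giving the replicate number, and a line through the mean of each time. The 48 h points of Nr0b1, Zfp42, Tcl1 and Tfcp2l1 lie below all their 0 h points, and those of the other 6 genes overlap them.

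Nr0b1 had the lowest change of the 10 at 48 h in all tables but Ser2p. NTD at its TSS was 27.9 and 51.4 CPM at 0 h, 42.4 and 49.6 at 2 h, 40.3, 27.5 and 31.0 at 4 h, 28.8, 20.8 and 30.8 at 6 h, 20.7 and 22.7 at 24 h, 10.6, 8.64 and 5.16 at 48 h, with 10.0 and 10.9 at 72 h. The 48 and 72 h libraries lay below every earlier one. The mean was 8.14 ± 2.77 CPM at 48 h (SD, n = 3), against 39.7 ± 16.6 CPM at 0 h (n = 2), a log2 change of -2.25 ± 0.28 or 4.77-fold lower (adjusted p = 7.73e-08, edgeR). At 72 h it stood at -1.92 ± 0.29 (adjusted p = 6.34e-06, edgeR), but at -1.46 ± 0.44 and not called with both NTD libraries that stood apart left out (adjusted p = 0.0509, edgeR).

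Ser5p at Nr0b1 was 13.4, 11.4 and 7.56 CPM at 48 h, against 34.7 and 42.7 CPM at 0 h, a change of -1.85 ± 0.26 (adjusted p = 7.02e-06, edgeR). Over the body NTD was 2.43, 2.78 and 2.14 CPM at 48 h, against 7.35 and 12.1 CPM at 0 h, a change of -1.97 ± 0.21 (adjusted p = 0.000143, edgeR). In both the groups do not overlap, and both calls held under each of the 11 and 12 alternatives tried. Ser2p over the body was 2.40, 2.13 and 2.32 CPM at 48 h, against 3.37 and 2.78 CPM at 0 h, a change of -0.43 ± 0.14 that was not called (adjusted p = 0.17, edgeR). By 72 h Ser2p had fallen to 1.53 and 1.65 CPM (-0.94 ± 0.17, adjusted p = 0.0111, edgeR), and leaving out replicate 1 at 0 h (-0.80) or replicate 3 at 72 h ended that call.

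Zfp42 was called lower earliest. NTD at its TSS was 113.6 and 155.9 CPM at 0 h, 108.7 and 92.5 at 2 h, 91.5, 54.4 and 72.2 at 4 h, 78.4, 62.4 and 77.1 at 6 h, 81.0 and 63.9 at 24 h, 44.5, 32.3 and 56.8 at 48 h, with 55.6 and 90.7 at 72 h. Every library from 2 h on lay below both 0 h libraries. It was the only one of the 10 called lower in this table at 4 h (-0.89 ± 0.21, adjusted p = 0.0166, edgeR), at 6 h (-0.90 ± 0.21, adjusted p = 0.0141, edgeR) and at 24 h (-0.90 ± 0.23, adjusted p = 0.0228, edgeR). These shares of 1 in 10 stand against 0.436%, 0.373% and 0.581% of all transcripts. The 3 early calls were lost without 0 h replicate 4, with changes of -0.65, -0.67 and -0.64, and with the authors' scale factors (-0.79, -0.66 and -0.51). DESeq2 did not call them either, at changes of -0.89, -0.89 and -0.87, about those of edgeR. Each call was lost also without 1 of its own libraries (4 h replicate 3 or 4, 6 h replicate 3, 24 h replicate 3).

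At 48 h NTD at the Zfp42 TSS averaged 44.5 ± 12.2 CPM, against 135 ± 29.9 CPM at 0 h (SD, n = 3 and 2), a change of -1.65 ± 0.22 (adjusted p = 4.29e-07, edgeR) that was called under all 12 alternatives. Ser5p was 47.9, 35.7 and 62.8 CPM at 48 h, against 93.5 and 110.4 CPM at 0 h (-1.06 ± 0.25, adjusted p = 0.00368, edgeR). NTD over the body was 27.4, 24.9 and 35.3 CPM at 48 h, against 61.3 and 74.5 CPM at 0 h (-1.22 ± 0.28, adjusted p = 0.0225, edgeR). In all 3 tables the 48 h libraries lay below those at 0 h. The Ser5p call was lost without 0 h replicate 4 (-0.93), and the body call without either 0 h library (-1.36 and -1.08) or 48 h replicate 1 (-1.19) or 2 (-1.12).

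At 72 h the 2 Zfp42 libraries parted in all 4 tables. Replicate 1 had 55.6 (NTD at TSS), 57.3 (Ser5p), 29.4 (NTD over the body) and 18.6 CPM (Ser2p), and replicate 3 had 90.7, 105.5, 84.3 and 48.1 CPM in the same order. Replicate 3 was above the 0 h mean in 3 of the 4. The NTD call at the TSS at 72 h (-0.85 ± 0.23, adjusted p = 0.0105, edgeR) was lost without 0 h replicate 4 (-0.59) or 72 h replicate 1 (-0.55), and at -1.03 with both NTD libraries that stood apart left out. Over the body NTD at 72 h was not called (-0.25 ± 0.30), but was without 72 h replicate 3 (-1.21). Against 48 h, 72 h gave 0.80 ± 0.23, 0.74 ± 0.26, 0.98 ± 0.28 and 0.56 ± 0.27 in the same order of tables, none called. Without 72 h replicate 1 the rise was called in NTD at the TSS (1.07), NTD over the body (1.54) and Ser2p (1.09).

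**Figure D3:**
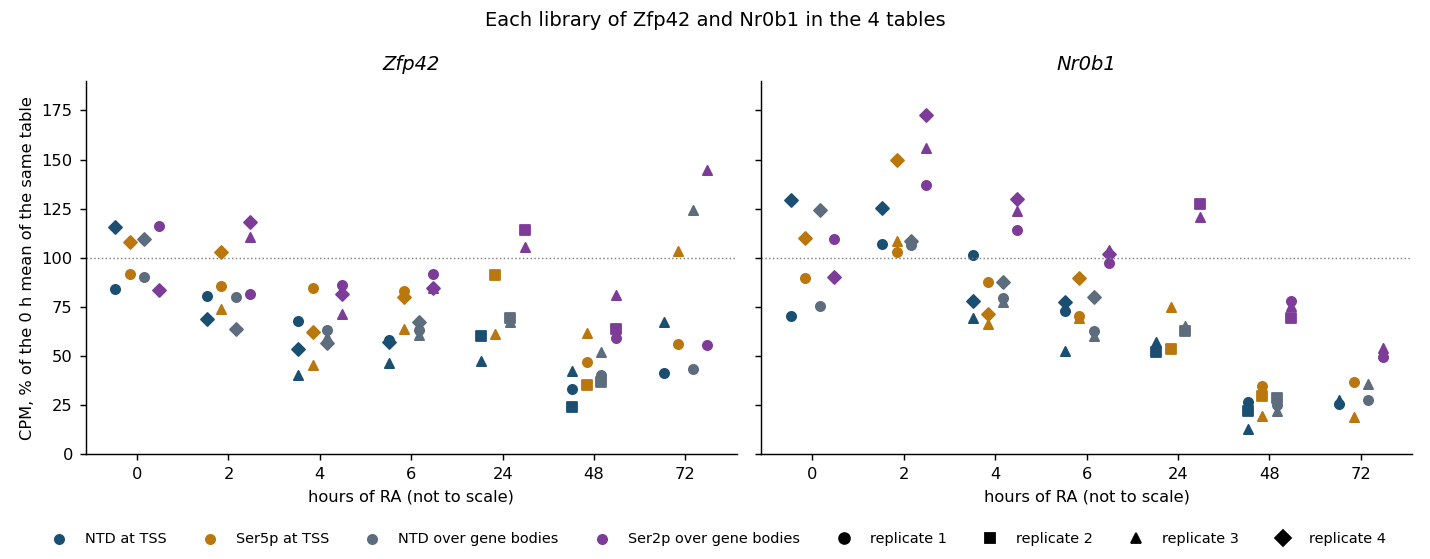
Each library of Zfp42 (left) and Nr0b1 (right), as CPM in percent of the 0 h mean of the same table (vertical axis), by hours of RA (horizontal axis, not to scale), with colour for the table and shape for the replicate. At 48 h all points of both genes lie below 100%, and at 72 h those of Nr0b1 stay low while those of Zfp42 split between replicate 1 (low) and replicate 3 (high).

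Tcl1 was lower in NTD at 48 and 72 h and in Ser5p at 48 h. NTD at its TSS was 31.0 and 37.1 CPM at 0 h, 18.5 and 27.2 at 2 h, 19.4, 19.5 and 32.8 at 4 h, 23.6, 20.8 and 27.4 at 6 h, 27.0 and 18.8 at 24 h, 17.9, 7.51 and 8.60 at 48 h, with 14.7 and 10.6 at 72 h. All but 1 of the libraries from 2 to 24 h lay below both at 0 h, and the 5 later ones lay below all before them. The change was -1.64 ± 0.29 at 48 h (adjusted p = 5.51e-05, edgeR) and -1.48 ± 0.31 at 72 h (adjusted p = 0.000729, edgeR). Ser5p was 14.6, 8.24 and 10.9 CPM at 48 h, against 28.2 and 28.7 CPM at 0 h, with no overlap (-1.36 ± 0.29, adjusted p = 0.00103, edgeR). Over the short Tcl1 body NTD was 3.30, 2.47 and 2.74 CPM at 48 h, against 5.29 and 5.72 CPM at 0 h (-0.96 ± 0.21, adjusted p = 0.0163, edgeR). The body call at 48 h was lost without either 0 h library (-1.01 and -0.90) or 48 h replicate 3 (-0.94). The body change at 72 h was -1.09 ± 0.23, a call lost without either 0 h library (-1.14 and -1.03) or 72 h replicate 3 (-0.97). Ser5p was not called at 72 h (-0.79), and Ser2p was called at no time, with a lowest change of -0.41. The TSS call at 72 h was lost without 72 h replicate 3 (-1.19), and with 0 h replicate 4 left out as well (-1.07).

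Dppa4 was called lower at 72 h alone, and in NTD at the TSS alone. NTD at its TSS was 19.1 and 39.5 CPM at 0 h and lay between 21.6 and 37.8 CPM in all libraries from 2 to 24 h. It was 18.6, 20.3 and 14.6 CPM at 48 h and 8.71 and 15.7 CPM at 72 h. It fell at 72 h (-1.20 ± 0.30, adjusted p = 0.00532, edgeR), where both libraries were below both at 0 h, but not without 0 h replicate 4 (-0.54), 72 h replicate 1 (-0.90) or both NTD libraries that stood apart (-1.12). Ser5p at Dppa4 at 72 h was 24.6 and 18.5 CPM, against 21.3 and 28.7 CPM at 0 h, which overlap.

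Esrrb was lower along its body. There NTD was 263.5 and 326.3 CPM at 0 h, 269.4 and 295.5 at 2 h, 287.7, 242.7 and 311.9 at 4 h, 291.6, 243.5 and 309.7 at 6 h, 255.9 and 242.1 at 24 h, 132.9, 135.3 and 134.8 at 48 h, with 119.1 and 159.8 at 72 h. The 5 libraries at 48 and 72 h lay far below all others. The changes of -1.13 ± 0.14 at 48 h (adjusted p = 0.000376, edgeR) and -1.08 ± 0.16 at 72 h (adjusted p = 0.00152, edgeR) were called under all 12 and 11 alternatives.

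Ser2p over the Esrrb body was 119.2, 111.6 and 117.2 CPM at 48 h, against 192.4 and 165.8 CPM at 0 h, again without overlap (-0.63 ± 0.13, adjusted p = 0.0261, edgeR). At 72 h it was 104.3 and 129.8 CPM (-0.61 ± 0.15, adjusted p = 0.0471, edgeR), a call lost without any 1 of the 4 libraries compared (-0.46 to -0.78). At the counted Esrrb TSS, NTD was low throughout, with 9.30, 4.13 and 10.3 CPM at 48 h, against 9.30 and 11.2 CPM at 0 h (-0.53 ± 0.36, adjusted p = 0.438, edgeR). Ser5p there was called lower at 72 h only (-0.97 ± 0.32, adjusted p = 0.0441, edgeR), with 13.6 and 8.97 CPM at 72 h, against 20.4 and 24.4 CPM at 0 h. That call was lost without either 0 h library (-1.10 and -0.85) or 72 h replicate 3 (-0.70).

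Tfcp2l1 was also lower over its body. NTD over its body was 94.8 and 128.4 CPM at 0 h and 93.1 to 124.5 CPM from 2 to 24 h. It was 58.3, 70.8 and 69.4 CPM at 48 h and 56.4 and 77.9 CPM at 72 h, below every earlier library. The changes were -0.76 ± 0.16 at 48 h (adjusted p = 0.0168, edgeR) and -0.73 ± 0.18 at 72 h (adjusted p = 0.0328, edgeR). At the TSS NTD was 73.1, 72.1 and 65.4 CPM at 48 h, against 92.5 and 124.8 CPM at 0 h (-0.63 ± 0.21, adjusted p = 0.0412, edgeR). That call held in only 3 of 12 alternatives and was lost without any 1 of the 5 libraries compared (-0.37 to -0.80). The body calls were lost without 0 h replicate 4 (-0.52 and -0.49) and without 1 replicate 1 (48 h, -0.67, and 72 h, -0.52).

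**Figure D4:**
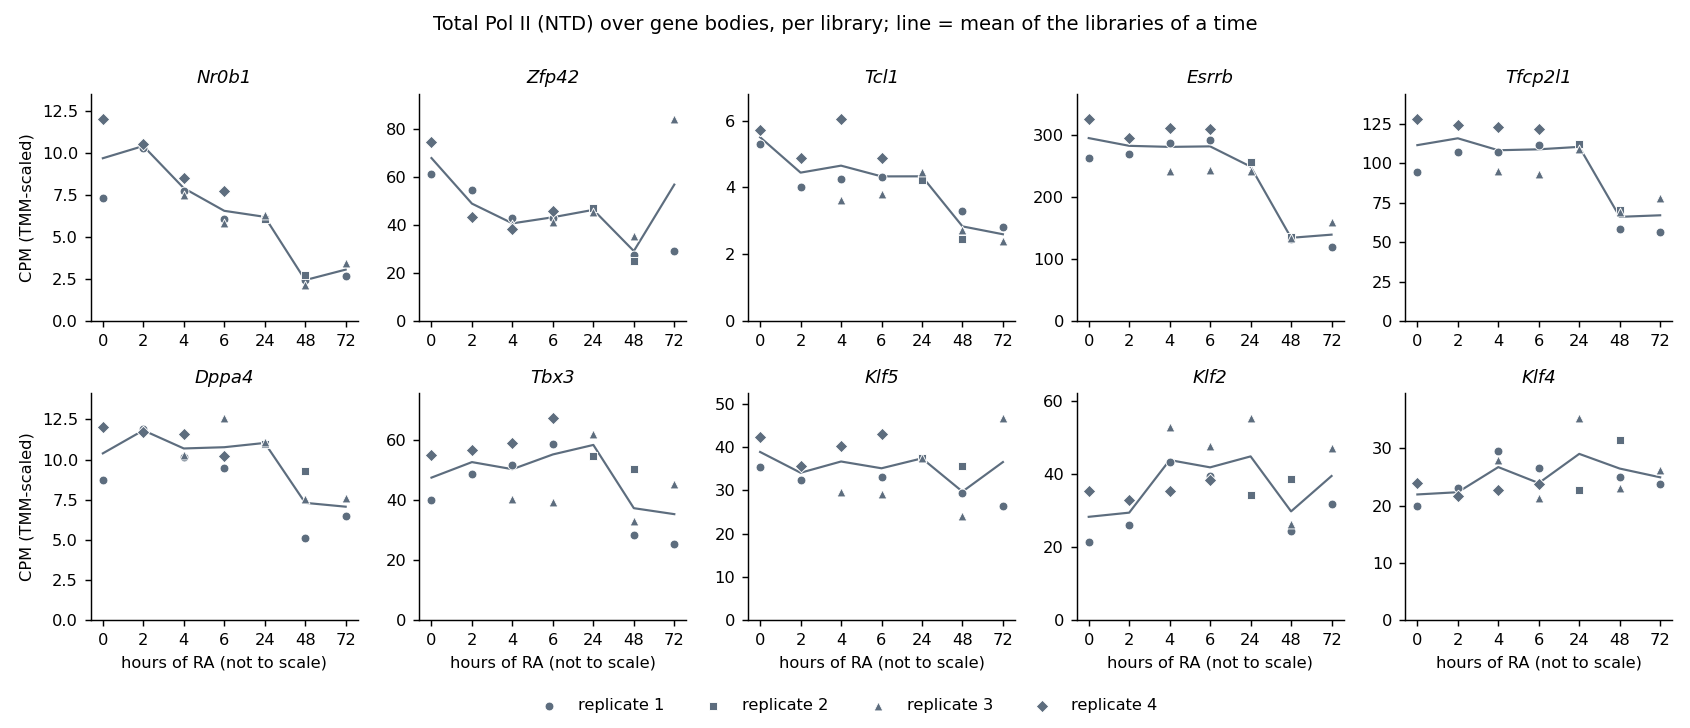
NTD signal over gene bodies (vertical axis, TMM-scaled CPM from 0) by hours of RA (horizontal axis, not to scale), 1 point per library with its shape giving the replicate number and a line through the mean of each time. At 48 h Nr0b1, Zfp42, Tcl1, Esrrb and Tfcp2l1 lie below all their 0 h libraries, and the 72 h points of Zfp42 are far apart at 29.4 and 84.3 CPM.

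The Klf genes and Tbx3 were not called lower than at 0 h at any time in any table. NTD at the Klf4 TSS was 190.6, 202.4 and 154.0 CPM at 48 h, against 130.7 and 159.8 CPM at 0 h (0.33 ± 0.20, adjusted p = 0.367, edgeR). At Klf2 it was 175.3, 185.5 and 179.0 CPM at 48 h, against 173.0 and 260.7 CPM at 0 h, and at Klf5 70.4, 65.7 and 54.2 CPM, against 50.6 and 76.9 CPM. At Tbx3 it was 71.1, 81.9 and 97.2 CPM at 48 h, against 82.6 and 136.3 CPM at 0 h. The groups overlap at all 4 genes.

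Ser2p was called higher over 2 of them at 24 h, where 9.01% of all transcripts were called higher and 3.99% lower. Over the Klf2 body it was 16.1 and 26.2 CPM at 24 h, against 8.32 and 6.57 CPM at 0 h (1.51 ± 0.30, adjusted p = 0.0168, edgeR), and over Klf4 11.9 and 18.2 CPM, against 8.09 and 5.35 CPM (1.17 ± 0.21, adjusted p = 0.0122, edgeR). All 24 h libraries lay above those at 0 h, but this was so at 7 of the 10 genes. The share of all transcripts where it was so is not given here. At an unadjusted p under 0.05, 5 of the 10 were higher. Without 0 h replicate 4 neither was called (1.35 and 0.90), nor without 24 h replicate 3 (1.11 and 0.83). NTD over the same bodies at 24 h was not called at Klf2 (0.66 ± 0.29) or Klf4 (0.40 ± 0.20).

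The genes were first called lower at different times, and those times were not themselves tested against each other. In NTD at the TSS the first call was at 4 h for Zfp42, at 48 h for Nr0b1, Tcl1 and Tfcp2l1, and at 72 h for Dppa4, and 4 genes were called lower at 72 h (Nr0b1, Tcl1, Dppa4 and Zfp42, against 3.47%). At 2 h none was, against 0.267%, with none at an unadjusted p under 0.05 either. In Ser5p the first calls came at 48 h, and at 72 h Nr0b1 and Esrrb were called (2 of 10, against 3.87%). None was at 2, 4, 6 or 24 h, where 0%, 0.00305%, 0.0061% and 3.14% of transcripts were and where 0, 1, 1 and 1 of the 10 had an unadjusted p under 0.05 and a fall. Over bodies NTD had 4 at 72 h (Esrrb, Tfcp2l1, Nr0b1 and Tcl1, against 1.64%) and Ser2p 2 (Esrrb and Nr0b1, against 0.342%). None was called in NTD over bodies at 2, 4, 6 or 24 h (0%, 0%, 0% and 0.00942%), with 0, 1, 2 and 1 at an unadjusted p under 0.05. Nor was any called lower in Ser2p at those times (0%, 0%, 0% and 3.99%), with 0 at each by unadjusted p, and DESeq2 called none lower at 2 to 24 h in any table. A fitted change of -1 or less was first reached at 48 h at Nr0b1, Zfp42 and Tcl1 (NTD and Ser5p at the TSS) and at Nr0b1, Zfp42 and Esrrb (NTD over bodies), at 72 h at Dppa4 (NTD at the TSS) and Tcl1 (NTD over the body), and at none of the 10 in Ser2p.

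Counted over 6 times and 4 tables, Nr0b1 and Zfp42 were called lower in 7 of 24 comparisons each, Esrrb and Tcl1 in 5, Tfcp2l1 in 3 and Dppa4 in 1. All of these comparisons share the 0 h libraries. A test of any change over the 7 times called Zfp42, Nr0b1, Tcl1 and Dppa4 in NTD at the TSS and 3, 4 and 4 genes in Ser5p, NTD over bodies and Ser2p, against 14.9%, 14.5%, 7.81% and 7.53% of transcripts. At 48 h every library lay below every 0 h library at 4 genes in NTD at the TSS, 5 in Ser5p, 5 in NTD over bodies and 4 in Ser2p, against 17.6%, 21.5%, 14.2% and 16.9% of transcripts. Without 0 h replicate 4 the count at 72 h in NTD at the TSS was 2, as it was without 72 h replicate 1, and that over bodies was 2. The Ser5p count at 72 h was 1 without either 0 h library or 72 h replicate 3, and the Ser2p count was 0 or 1 without any 1 library.

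The step from 24 to 48 h compares no 0 h library. Its calls still rest in part on the 0 h libraries, since the filter, scaling and spread came from the fit of all times. Over gene bodies all 10 genes had a negative change over this step, in NTD (-1.32 to -0.13) and in Ser2p (-0.75 to -0.15). Their medians were -0.63 and -0.67, where those of all transcripts were 0.00 and -0.00. Esrrb, Tfcp2l1 and Nr0b1 were called lower in both, 3 of 10 against 1.06% (NTD) and 1.36% (Ser2p). In Ser2p the step began from 24 h levels above those at 0 h, with a median change of 0.31 and 1 of 10 negative. Against 0 h, the Ser2p changes at 48 h ran from -0.63 to 0.80, with a median of -0.22 and 6 of 10 negative. The Ser2p falls over this step are therefore not all falls below 0 h. Esrrb had NTD of 134 ± 1.26 CPM at 48 h, against 249 ± 9.73 CPM at 24 h (SD, n = 3 and 2; -0.89 ± 0.14, adjusted p = 0.00439, edgeR), and Ser2p of 116 ± 3.96 CPM, against 193 ± 16.9 CPM (-0.74 ± 0.13, adjusted p = 0.0101, edgeR). Tfcp2l1 changed by -0.74 ± 0.16 in NTD (adjusted p = 0.0346, edgeR) and by -0.64 ± 0.13 in Ser2p (adjusted p = 0.0168, edgeR).

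Nr0b1 changed over the same step by -1.32 ± 0.22 in NTD over the body (adjusted p = 0.00661, edgeR) and by -0.74 ± 0.14 in Ser2p (adjusted p = 0.011, edgeR). It was the only one of the 10 called at the TSS, in NTD (-1.37 ± 0.30, adjusted p = 0.00804, edgeR, against 0.935% of transcripts) and in Ser5p (-1.25 ± 0.27, adjusted p = 0.0126, edgeR, against 0.397%). With 24 h replicate 2 left out no gene was called in any of the 4 tables, although the changes stayed near those of the full data. They were then -0.85 (Esrrb), -1.35 (Nr0b1) and -0.72 (Tfcp2l1) in NTD over bodies, -0.64, -0.70 and -0.59 in Ser2p, and -1.43 (NTD) and -1.45 (Ser5p) at the Nr0b1 TSS. The counts over bodies were also 1 (NTD and Ser2p) without 24 h replicate 3, 5 (both) without 48 h replicate 2, and 0 (Ser2p) without 48 h replicate 3. At the TSS they were 0 without 24 h replicate 3 or 48 h replicate 3, and 2 (NTD) without 48 h replicate 1. The genes gained over bodies without 48 h replicate 2 were Dppa4 (-0.82 in NTD, -0.52 in Ser2p) and Tbx3 (-0.92 in NTD, -1.02 in Ser2p). From 6 to 24 h edgeR called none in any table, with 2 higher in Ser2p at an unadjusted p under 0.05. From 48 to 72 h it called none higher, against 0.499%, 0.0122%, 0.00314% and 0%, with 2, 1, 1 and 0 at an unadjusted p under 0.05, and DESeq2 called none over either step.

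**Figure D5:**
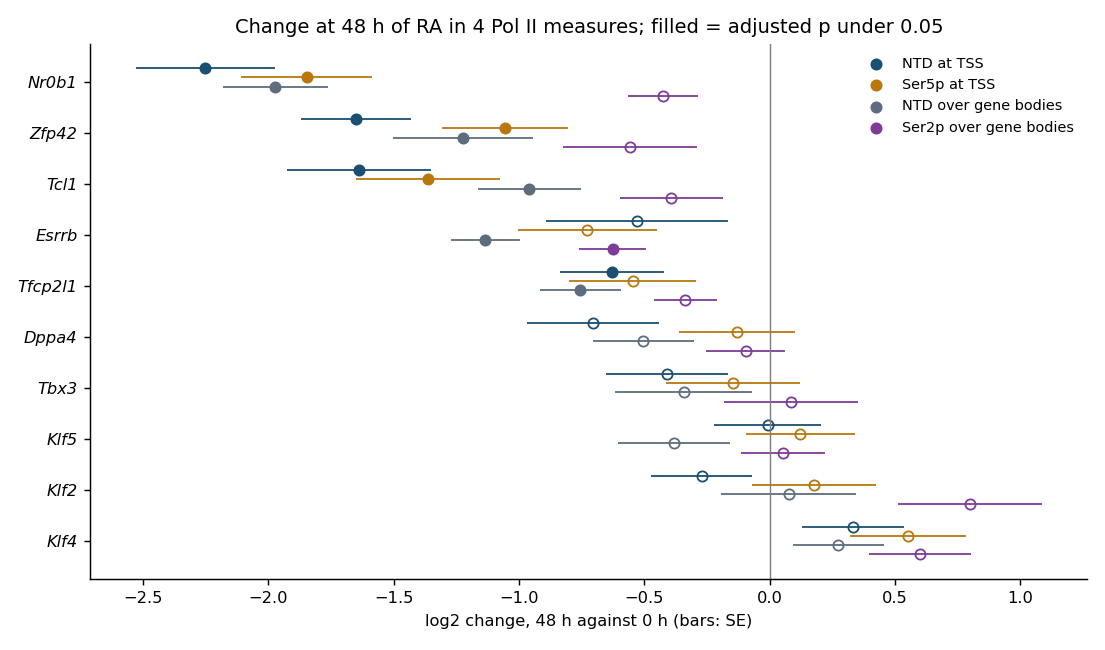
Log2 change at 48 h against 0 h (horizontal axis, bars SE) of each of the 10 genes (rows) in the 4 tables (colours), filled where the adjusted p is under 0.05. The Ser2p points lie to the right of the NTD body points at all 10 genes, and Klf4 is to the right of 0 in all 4.

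Ser2p had a less negative or more positive change than NTD over the same bodies at 48 h at all 10 genes, by 0.34 to 1.57 on the log2 scale in the joint fit of both antibodies, but the difference was called at none. The largest was at Nr0b1, 1.57 ± 0.26 (adjusted p = 0.0973, edgeR, interaction of antibody and time), and 0% of 32232 transcripts were called, at 48 h or at 72 h. At an unadjusted p under 0.05 there were 2 of the 10 at 48 h and 3 at 72 h. Without NTD 0 h replicate 4 the range was 0.16 to 1.14, with Nr0b1 at 1.14. The opposite order of the 2 libraries at 0 h in NTD and Ser2p bears on this comparison, and its part was not tested. Ser5p differed from NTD at the TSS by -0.26 to 0.54 at 48 h and was called at none of the 10 (0.399% of transcripts, and 0.0884% at 72 h), with 0 and 1 at an unadjusted p under 0.05.

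Whether Pol II was lost from the TSS and the body in unequal measure was read from the ratio of NTD over the body to NTD at the TSS within each library. Body counts may take in the part of the TSS window downstream of the start, most of all at short genes such as Klf2, Nr0b1 and Klf4. Reads counted in both would draw this ratio toward no change. No ratio was called by limma, at 48 h (0.088% of transcripts) or at 72 h (0%). The change in log2 ratio at 48 h was 0.75 ± 0.27 at Tcl1 (adjusted p = 0.267, limma), 0.42 ± 0.27 at Nr0b1 and 0.36 ± 0.29 at Zfp42. For Esrrb the transcript counted at the TSS was used for the body as well, so this body is not the one described above. Its change in log2 ratio at 48 h was -0.90 ± 0.45 (adjusted p = 0.459, limma). At an unadjusted p under 0.05 there was 1 gene at 48 h and 0 at 72 h.

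Other pluripotency genes were also lower at 48 h. Of the core factors, Pou5f1 had NTD at the TSS of 22.6, 15.4 and 11.2 CPM at 48 h, against 57.3 and 77.7 CPM at 0 h (-2.03 ± 0.24, adjusted p = 4.69e-08, edgeR), a change between those of Nr0b1 and Zfp42. Sox2 changed by -1.31 ± 0.23 (adjusted p = 4.24e-05, edgeR), and Nanog by -0.70 ± 0.26 (adjusted p = 0.0827, edgeR), which was not called, as in the other 3 tables. Of 18 other naive-state genes, 10 were called lower in NTD at the TSS, 4 in Ser5p, 8 in NTD over bodies and 4 in Ser2p, and none higher. They include Tdh, a threonine dehydrogenase (-2.54 ± 0.30, NTD at TSS), and Fgf4, a growth factor (-1.81 ± 0.25, Ser5p). Without 0 h replicate 4 these counts at the TSS (NTD) and over bodies (NTD, Ser2p) were 4, 2 and 2. The lowest counts without any other library were 6 (48 h replicate 2), 5 (48 h replicate 1 or 3) and 1 (0 h replicate 1), and the Ser2p count was also 2 without 48 h replicate 2. The TSS count in NTD was 3 with the authors' scale factors.

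Of 10 general pluripotency genes, 7, 5, 5 and 1 were called lower in the same order of tables, led by Tdgf1, a NODAL coreceptor (-3.05 ± 0.32, NTD at TSS), and in Ser2p by Utf1 (-0.91 ± 0.19). The NTD body count was 1 without 0 h replicate 4, and the Ser2p call was lost without either 0 h library or 48 h replicate 2 or 3. In the list of 10 LIF-STAT3 genes, Stat3 (-1.06 ± 0.24) and Pim3 were called lower and the kinase gene Jak1 (0.89 ± 0.22) higher in NTD at the TSS. Jak1 was also higher in Ser5p (0.76 ± 0.24), the receptor gene Lifr lower over bodies in NTD (-0.68 ± 0.11, with Stat3) and Ser2p (-0.51 ± 0.10), and Pim1 higher in Ser2p (0.98 ± 0.23). The TSS falls and the NTD body falls were lost without 0 h replicate 4, a further rise was called at the TSS in NTD without 48 h replicate 1, Jak1 was lost in both tables without 0 h replicate 1 and in Ser5p also without 48 h replicate 3, and the Ser2p calls without either 0 h library or 48 h replicate 2.

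The formative and primed list of 13 moved both ways, with 5, 6, 1 and 0 lower and 2, 1, 3 and 2 higher. In NTD at the TSS Foxd3 (-1.56 ± 0.31) and Otx2 were among the lower and Sox3 (1.62 ± 0.34) and Sox4 were the higher. Otx2 led the falls in Ser5p (-1.56 ± 0.29) and Etv5 in NTD over bodies (-1.16 ± 0.14), where Sox3 (1.60 ± 0.42), Sox4 and Cdh2 were higher, and Sox4 (1.15 ± 0.24) and Cdh2 were higher in Ser2p. The numbers higher were 1 without 0 h replicate 4 in NTD at the TSS, NTD over bodies and Ser2p, 1 in NTD over bodies and 0 in Ser2p without 0 h replicate 1, and 0 in Ser2p without 48 h replicate 2 or 3.

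Markers of other cell types were summed beside these falls. The 10 primitive endoderm markers summed to 141.6 to 184.6 CPM of NTD at the TSS at 48 h, against 88.3 to 101.6 CPM at 0 h, and Col4a1 (1.80 ± 0.30), Pdgfra and Dab2 were called higher. Over bodies NTD summed to 310.9 to 424.2 CPM at 48 h, against 263.7 to 281.5 CPM at 0 h, with Foxa2 called (0.99 ± 0.22), and not without either 0 h library or 48 h replicate 3. Ser2p summed to 320.4 to 408.3 CPM, against 281.9 to 327.1 CPM, with none called (0 at an unadjusted p under 0.05). Ser5p at this list had 158.5 to 220.3 CPM at 48 h, against 203.2 to 325.6 CPM at 0 h, with 5 called lower (Sox17 -1.55 ± 0.30, Gata4, Foxa2, Pdgfra and Gata6) and Dab2 higher (1.25 ± 0.31). Without 0 h replicate 4 the 5 were 1 and Dab2 was not called, and without 48 h replicate 2 or 3 the 5 were 3. With the authors' scale factors the 5 were 2.

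At 72 h more primitive endoderm markers were called higher, 6 of 10 in NTD at the TSS (Col4a1 2.07 ± 0.31, Dab2, Pdgfra, Gata6, Sox7 and Lama1), 6 in NTD over bodies (Lama1 1.57 ± 0.22, Col4a1, Gata6, Foxa2, Dab2 and Gata4) and 2 in Ser2p (Lama1 1.25 ± 0.20 and Col4a1). The share of all transcripts called higher at 72 h is not given here, so these counts do not show whether the increase is particular to this list. The sum of the 10 markers was 164.3 to 294.1 CPM of NTD at the TSS at 72 h, against 88.3 to 101.6 CPM at 0 h. Over bodies it was 499.1 to 726.2 CPM of NTD, against 263.7 to 281.5 CPM, and 430.7 to 621.9 CPM of Ser2p, against 281.9 to 327.1 CPM. In Ser5p it was 160.9 to 282.1 CPM at 72 h, against 203.2 to 325.6 CPM at 0 h, with 3 lower and Dab2 higher. The NTD counts were 3 without 0 h replicate 1, 2 without 72 h replicate 1 and 2 with DESeq2 at the TSS, and 2 without either 0 h library over bodies. The Ser2p count was 0 without either 0 h library and 1 without 72 h replicate 1, and the 3 lower in Ser5p were 0 without 0 h replicate 4 or 72 h replicate 3.

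The 8 trophoblast markers had 76.2 to 91.2 CPM of NTD at the TSS at 48 h, against 81.3 to 94.0 CPM at 0 h, with none called there or over bodies in NTD and Ser2p (1 lower and 1 higher at an unadjusted p under 0.05 at the TSS, and none over bodies, by edgeR). In Ser5p 4 were lower (Cdx2 -1.92 ± 0.33, Eomes, Hand1 and Ascl2), 1 without 0 h replicate 4 and 2 without 48 h replicate 3. The 8 fibroblast markers had 43.9 to 66.3 CPM of NTD at the TSS at 48 h, against 44.2 to 57.3 CPM at 0 h, with none called in any table by edgeR or DESeq2 and 1, in Ser2p, at an unadjusted p under 0.05. Markers of the 2-cell-like state were all under 5 CPM at 0 h. The 6 of them in the NTD table at the TSS summed to 8.64 to 12.0 CPM at 48 h, against 1.55 to 3.19 CPM at 0 h, and none passed its filter. Zscan4d was called higher in Ser5p (2.76 ± 0.76) and NTD over bodies (3.31 ± 0.53, with Usp17la), and in Ser2p 1 gene was tested and not called. The Ser5p call was lost without 0 h replicate 1 or 48 h replicate 1 or 2, and the body count was 1 without 0 h replicate 1 and 0 without 0 h replicate 4. The part of any of these markers in the falls of the naive genes was not tested.

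Other genes with a time course like the average one of the 10 were sought by the correlation of mean log2 CPM over the 7 times with the mean standardized profile of the 10, among genes that varied at least 2-fold. The nearest were Snord57 (r = 0.997), Gm25500 (0.994) and Gpr1 (0.992) of 3779 in NTD at the TSS, and Pop1 (0.989), Rida (0.983) and Cnpy1 (0.981) of 3822 in Ser5p. Over bodies they were Snhg7 (0.985), Rps18 (0.978) and Rps25 (0.975) of 518 in NTD, and Rpl4 (0.992), Rnf225 (0.988) and Rps10 (0.988) of 396 in Ser2p. These values rest on 7 time means from the same libraries and describe likeness in shape alone, and counts of ribosomal protein genes are uncertain, since such genes have near-identical copies.

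The authors' deposited tables of comparisons called fewer of the 10 lower at the TSS. DESeq2 is named in the submitters' processing notes, without its role. The deposited log2 changes are not on the scale of those above. At Zfp42 in NTD at the TSS at 48 h the alternatives run here, the authors' scale factors among them, gave -1.86 to -1.38. At Klf2 in Ser2p at 4 h the deposited change was 0.16, and DESeq2 run here gave 1.10. The cause was not tested, so sizes should not be compared between the 2. At 48 h the authors' deposited table called Zfp42 (-0.84, adjusted p = 0.00418) and Nr0b1 (-1.22, adjusted p = 0.00323) in NTD at the TSS and Nr0b1 in Ser5p (-1.03, adjusted p = 0.00627), with Klf4 higher there (0.40, adjusted p = 0.046). In the authors' deposited table for NTD over bodies Esrrb (-0.85, adjusted p = 5.36e-09), Nr0b1 (-1.12, adjusted p = 1.34e-08), Tfcp2l1, Zfp42 and Dppa4 were lower at 48 h, and in that for Ser2p Esrrb was (-0.46, adjusted p = 0.04). The authors' deposited tables also have Klf2 and Klf4 higher in Ser2p at 4 h and 24 h and Klf2 at 6 h. Tcl1, called at 48 h in 3 tables by edgeR, was not called in any of the authors' deposited tables. Some deposited adjusted p-values are missing, as for Esrrb in NTD at the TSS at 48 h and Tcl1 in Ser5p at 24 h. There the lack of a call is no test result.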

How the data were processed

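Pol II ChIP-seq libraries of RA-treated E14 cells were analysed from 4 tables that hold 53 of the 157 labelled samples. Raw counts per transcript were deposited by the authors, with a normalized signal (the count times 1 factor per library), FPKM for gene bodies, and their own log2 fold changes and adjusted p-values. The deposited tables also hold 14 columns of per-group means, not used here, and 120 further comparison columns. Per the submitters' processing notes, Bowtie2, SAMtools, MACS2 and DESeq2 were used with the mm10 and dm6 builds; no source used here gives versions or the counting tool. Reads that map to several places, and the dm6 genome, could affect counts and scaling in ways these files do not show.

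Here the raw counts of all libraries of a table entered 1 fit (edgeR 4.0.16, R 4.3.3; filterByExpr, TMM, quasi-likelihood test on time), with p-values adjusted over 31843 to 32774 transcripts at 0.05. Transcripts with no symbol held 0.0166% to 0.0761% of counts. Differences between antibodies were tested as interactions in edgeR, and body to TSS ratios with limma 3.58.1 (pseudocount 0.5 CPM). Printed ± is SD after CPM or FPKM and SE after a log2 change. The fits were also run on simulated data, in which libraries were independent and none stood apart. That run cannot show how shared replicate numbers or libraries that stand apart affect the calls. The text names all 10 genes, Pou5f1, Sox2 and Nanog, the called gene with the largest fall and rise at 48 h of each other list, and the 3 genes most alike in time course per table; other called list genes were named after their values were seen. The members and lists were chosen with earlier results of these data known. Alternatives were DESeq2 1.42.0, the authors' scale factors, library totals, no filter, the lowest transcript, a replicate block, each library left out, and 2 NTD libraries left out together. Steps between consecutive times, the test of any change and the other lists under these alternatives were added after seeing the data.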

Additional observations from a re-analysis of the deposited data

How the results depend on the processing

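No called change of the 10 genes turned its direction under any alternative run. With each library left out in turn, 71 of 175 calls were lost and 15 gained, with DESeq2 6 of 38 lost and 4 gained. The counts of the 10 called lower in NTD at the TSS, 1 each at 4, 6 and 24 h, were 0 with DESeq2, with the authors' scale factors and with both of the NTD libraries that stood apart (0 h replicate 4, 72 h replicate 3) left out, and at 24 h also 2 with library totals. At 72 h, 4 became 2 with the authors' scale factors and 0 without both, and the step from 24 to 48 h went to 3 without both. The 5 over bodies in NTD at 48 h were 3 without both. DESeq2 gave 2 and 1 higher in Ser2p at 4 and 6 h and 1 higher in Ser5p at 48 h. The 2 lower in Ser2p at 72 h were 1 with the authors' factors, library totals or the lowest transcript, and the 2 in Ser5p at 72 h were 1 with DESeq2, the authors' factors or the lowest transcript. In Ser5p, library totals gave 1 lower at 24 h and the authors' factors 2 over the step from 24 to 48 h. The authors' factors gave 2 with any change in NTD at the TSS. The causes of these moves were not tested.

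Left-out libraries gave these ranges. In NTD at the TSS the counts lower were 0 to 1 at 4 h and 6 h, 0 to 2 at 24 h and over the step from 24 to 48 h, and 2 to 4 at 72 h, with 0 to 1 higher from 48 to 72 h. In NTD over bodies they were 2 to 5 at 48 h, 0 to 5 from 24 to 48 h and 2 to 4 at 72 h, with 0 to 1 higher from 48 to 72 h. In Ser2p they were 0 to 1 at 48 h and at 72 h and 0 to 5 from 24 to 48 h, with 0 to 2 higher at 2 h and at 24 h and 0 to 1 from 48 to 72 h. In Ser5p they were 0 to 1 from 24 to 48 h and 1 to 2 at 72 h.

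The labels do not say what a replicate number shares. Each library's deviations in log2 CPM from the mean of its time were correlated with those of libraries of other times. Same-numbered libraries correlated above 0.1 in 18 of 32 pairs (NTD at TSS), 18 of 37 (Ser5p), 27 of 32 (NTD over bodies) and 17 of 37 (Ser2p), against 14 of 91, 19 of 101, 25 of 91 and 35 of 101 differently numbered pairs. The median r of same-numbered pairs was highest in NTD over bodies (0.24, against -0.12), though not every such pair was positive. Where a time has 2 libraries, their deviations are exact opposites, so a positive r in one pair forces a negative r in another. The contrast between same-numbered and other pairs is thus partly fixed by the centring, and the pairs are not independent. The fits without the block were kept. With the replicate block the counts lower were 0 (NTD at TSS, 24 h), 3 and 2 (NTD and Ser5p at TSS, 24 to 48 h), 0 and 1 (Ser2p, 48 and 72 h) and 1 (Ser5p, 72 h), and 0 were higher in Ser2p at 24 h. In NTD over bodies at 48 h the block ended the call of Tcl1 (-0.62, adjusted p = 0.0525, edgeR) and gained Dppa4 (-0.71, adjusted p = 0.038, edgeR). Antibody interactions and body to TSS ratios had 0 of the 10 called under each alternative tried.

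List counts at 48 h that moved by over 1.5 times were these. With the authors' scale factors, other naive-state genes lower in NTD at the TSS were 3 (10 before), LIF-STAT3 genes 0 (2) and formative genes 3 (5), and primitive endoderm markers lower in Ser5p 2 (5). With the replicate block, other naive-state genes lower were 6 (10) in NTD at the TSS and 2 (4) in Ser2p. Primitive endoderm markers were then 5 (1) higher in NTD over bodies, 1 (0) higher in Ser2p and 1 (5) lower in Ser5p, and trophoblast markers lower in Ser5p 2 (4). The block also gave 0 (1) general pluripotency genes lower, 0 (1) LIF-STAT3 and 0 (2) formative genes higher in Ser2p, and 2 (1) formative genes lower in NTD over bodies. With both NTD libraries that stood apart left out, other naive-state genes lower were 5 (10) at the TSS and 4 (8) over bodies, general pluripotency genes over bodies 3 (5), LIF-STAT3 genes 1 (2) in each, and primitive endoderm markers higher over bodies 0 (1). DESeq2 gave 3 (5) primitive endoderm markers lower in Ser5p and 2 (1) higher in NTD over bodies, 3 (1) formative genes lower there and 1 (0) in Ser2p. It also gave 2 (1) general pluripotency and 2 (1) LIF-STAT3 genes lower and 1 (0) other naive-state gene higher in Ser2p, 1 (2) LIF-STAT3 genes lower in NTD at the TSS and 0 (1) higher in Ser5p, and 0 (1) and 1 (2) 2-cell-like genes higher in Ser5p and NTD over bodies. Library totals gave 2 (1) LIF-STAT3 genes higher in NTD at the TSS and, in Ser5p, 1 (0) lower and 0 (1) higher, and no filter gave 1 (0) 2-cell-like gene higher in NTD at the TSS.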
